A study of Mus musculus with 6 samples.

Results

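The 9 genes described here take part in glucose uptake, storage, breakdown or release in mouse liver or are known to respond to feeding and glucose there: Gckr, Slc2a2, Ppp1r3b, G6pc, Fbp1, Pck1, Pklr, Txnip and Rgs16. They were chosen by gene symbol from the 42380 rows of the deposited count table, each symbol has a single row, and all 9 were among the 12468 genes tested. The choice was made with the difference between exposed and control livers already known, so that difference is described for these 9 genes and not tested. Polyadenylated RNA was sequenced from liver tissue of mice exposed to DEHP, di(2-ethylhexyl) phthalate, a plasticizer (3 libraries), and of mice without DEHP (3 libraries). The sources used here give no dose, duration, strain, age, sex, feeding state or hour of collection. The count table heads the exposed columns High, without an amount. Nothing says that the libraries are of different animals, so any p-value below measures the spread between these samples.

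The liver buffers blood glucose. After a meal, glucose enters hepatocytes through the transporter GLUT2, is phosphorylated, and is stored as glycogen or broken down to pyruvate, and the transcription factor ChREBP raises the genes of that route when sugar is plentiful. In fasting, glucagon and glucocorticoids raise the gluconeogenic enzymes, insulin lowers them, and glucose leaves the cell after glucose-6-phosphatase removes its phosphate. Several of these transcripts also follow the time of day in mouse liver.

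Total counts were 10410098 to 12405044 in the DEHP libraries and 12001969 to 14229803 in the control libraries. Values are CPM, a library-scaled count after TMM correction for library composition, given as mean ± SD of 3 libraries. The tissue label matched the abundance of albumin, at 80860 ± 14980 CPM in DEHP livers and 86730 ± 18520 CPM in control livers. Hepatocyte markers were not all level between groups. Of 9 tested, 2 were higher and 2 lower by an unadjusted p under 0.05 in edgeR, against 6.11% of all genes higher and 6.97% lower. None of the 9 passed an adjusted p of 0.05 there (DESeq2 1 higher, limma-voom 0). Control replicates 1 and 2 stood apart from control replicate 3. The 23 interferon-stimulated genes with a row summed to 371 to 443 CPM in DEHP libraries, against 4372 CPM in control replicate 1, 3473 CPM in control replicate 2 and 417 CPM in control replicate 3. The 12 macrophage markers summed to 282 to 423 CPM in DEHP libraries, against 885.5 CPM in control replicate 1, 812 CPM in control replicate 2 and 271 CPM in control replicate 3. Most of that sum came from Clec4f, Cd5l and the complement genes C1qa, C1qb and C1qc, while Adgre1, Vsig4 and Cd163 had log2 fold changes of -0.06, -0.11 and 0.29 (DEHP over control). None of the 12 passed in edgeR (0 higher and 5 lower by an unadjusted p under 0.05; DESeq2 1 lower, limma-voom 0), and no marker of that list was at 0 in all libraries. In tissue RNA, fewer cells of a type and less RNA per cell cannot be told apart.

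Rgs16 and G6pc were the members whose groups did not overlap. Rgs16 was lower in all 3 DEHP libraries, by 5.84-fold between group means as fitted, and G6pc was higher in all 3, by 1.65-fold. Groups did not overlap for 17.7% of all genes tested (9.17% with every DEHP library above, 8.57% with every DEHP library below), which is the background for these 2 of 9 genes. None of the 9 passed an adjusted p of 0.05 in edgeR, where 0.0722% of all genes did (0.0561% higher, 0.016% lower). By an unadjusted p under 0.05, 1 member was higher and 2 were lower, against 6.11% of all genes higher and 6.97% lower, 13.1% together. DESeq2 called 1 member, Rgs16, against 2.09% of all genes, and limma-voom called 0, against 0.016%. Because the members were chosen on this contrast, these counts describe them and carry no further weight.

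**Figure D1:**
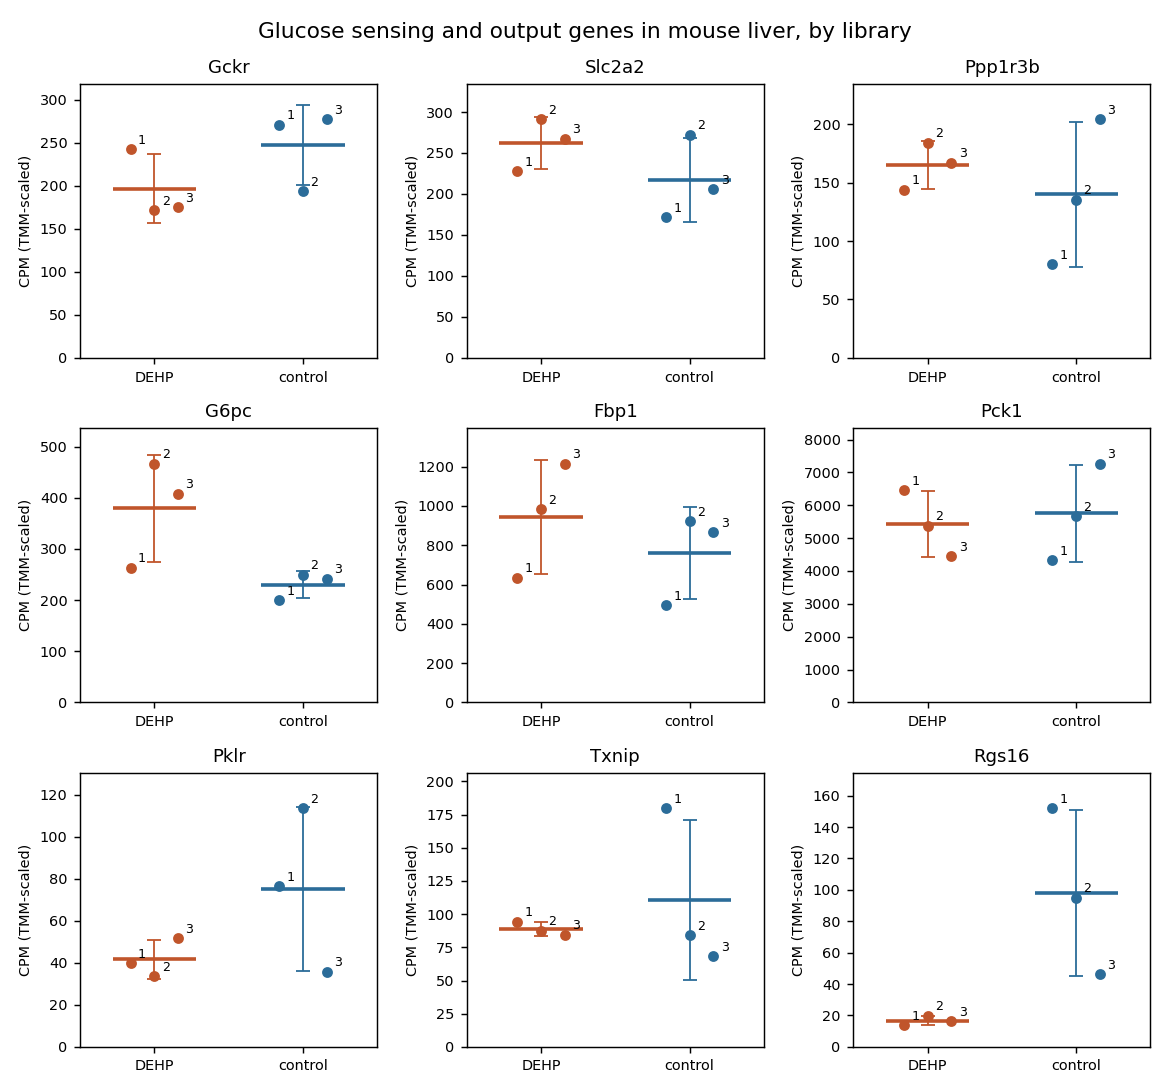
CPM (vertical axes, from 0) of the 9 genes in each DEHP library (left) and control library (right), points numbered by replicate, with the group mean (thick bar) and SD (thin bar, n = 3). The 3 DEHP libraries of Rgs16 lie between 13.97 and 19.9 CPM, below all controls, and those of G6pc between 263 and 466 CPM, above all controls, while control values of Pklr, Txnip and Ppp1r3b are widely spread.

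Rgs16 encodes a regulator of G protein signalling, which speeds the shutting off of Gi and Gq proteins after a receptor fires. Its transcript in mouse liver is known to follow feeding and the time of day and to be raised by ChREBP. The table places it (MGP_C57BL6NJ_G0017003) on chromosome 1 from 164060203 to 164066203, plus strand, in the coordinates of the C57BL/6NJ strain annotation, as protein-coding. It held 13.97, 19.9 and 16.3 CPM in DEHP replicates 1 to 3, against 152, 95.1 and 46.4 CPM in control replicates 1 to 3. The DEHP libraries were close to each other, and the controls ranged over 3.27-fold. The means were 16.7 ± 2.98 CPM in DEHP livers and 97.8 ± 52.8 CPM in control livers (SD, n = 3), a log2 fold change of -2.55 ± 0.40 (SE).

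The size of the Rgs16 difference depended on the control libraries. Its direction could hardly change with libraries left out, because every DEHP library lay below every control. Control replicate 3, which had low interferon-stimulated and macrophage sums like the DEHP libraries, lay 1.48 above the DEHP mean on the log2 scale. Control replicates 1 and 2 lay 3.19 and 2.51 above it. The part of those sums in the Rgs16 difference was not tested. With 1 library left out at a time, the log2 fold change lay between -2.86, with control replicate 3 left out, and -2.08, with control replicate 1 left out. Against control replicate 3 alone it was -1.46, a comparison added after the data were seen, in which that single control is assumed to vary like the DEHP libraries. Rgs16 levels rested on 138 to 228 counts in DEHP libraries and 524 to 2143 counts in control libraries.

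Pklr encodes the liver and red cell pyruvate kinase, which completes glycolysis and whose gene is a classic target of ChREBP. It held 39.9, 33.6 and 51.7 CPM in DEHP replicates 1 to 3, against 76.5, 113.6 and 35.7 CPM in control replicates 1 to 3. Control replicate 3 fell inside the range of the DEHP libraries, and the other controls lay above it. The means were 41.7 ± 9.17 CPM in DEHP livers and 75.3 ± 38.9 CPM in control livers, a log2 fold change of -0.85 ± 0.37. Without control replicate 3 the value was -1.16, and without control replicates 1 and 2 it was 0.23. The control libraries that lay above were those with high interferon-stimulated and macrophage sums, whose part in the difference was not tested. The table places Pklr (MGP_C57BL6NJ_G0027835) on chromosome 3 from 92706147 to 92718139, plus strand.

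Txnip encodes the thioredoxin-interacting protein, an alpha-arrestin that binds thioredoxin, removes glucose transporters from the cell surface and is raised by glucose. It held 94.3, 87.6 and 84.5 CPM in DEHP replicates 1 to 3, against 179.7, 84.3 and 68.2 CPM in control replicates 1 to 3. A single library, control replicate 1, was high, and the others lay together. The means were 88.8 ± 4.99 CPM in DEHP livers and 110.7 ± 60.2 CPM in control livers, with a log2 fold change of -0.32 ± 0.31, which became 0.22 without control replicate 1. Txnip (MGP_C57BL6NJ_G0028037) lies on chromosome 3 from 100989296 to 100993222, plus strand, in the table's coordinates.

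The 250 bases before the start of Rgs16, Pklr and Txnip are shown because glucose-responsive genes carry a known kind of element, a pair of E-box-like sites 5 bases apart, that could be looked for beside these values. For Pklr the window of the inner, liver-type start is given. Capitals mark matches to the motifs searched. Sequences are from RefSeq on GRCm38.p6, a build whose coordinates differ from those of the count table: 0 of 9 members had the same start.
Rgs16, chr1:153740103-153740352, plus strand: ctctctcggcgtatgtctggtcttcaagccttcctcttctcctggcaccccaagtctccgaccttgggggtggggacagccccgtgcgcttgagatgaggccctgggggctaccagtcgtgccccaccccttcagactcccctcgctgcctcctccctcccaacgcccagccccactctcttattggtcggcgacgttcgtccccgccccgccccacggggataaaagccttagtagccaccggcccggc
Pklr, chr3:89136373-89136622, plus strand: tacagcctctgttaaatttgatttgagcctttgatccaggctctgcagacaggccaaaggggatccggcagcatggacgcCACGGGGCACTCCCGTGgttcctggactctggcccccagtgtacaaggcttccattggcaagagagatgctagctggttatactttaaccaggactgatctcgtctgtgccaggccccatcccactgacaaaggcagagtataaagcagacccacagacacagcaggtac
Txnip, chr3:96557707-96557956, plus strand: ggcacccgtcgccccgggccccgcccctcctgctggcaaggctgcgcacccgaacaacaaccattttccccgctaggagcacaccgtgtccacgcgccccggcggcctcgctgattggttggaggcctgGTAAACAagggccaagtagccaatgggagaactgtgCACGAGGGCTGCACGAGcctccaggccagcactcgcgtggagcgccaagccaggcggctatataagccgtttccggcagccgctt

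In these windows the letters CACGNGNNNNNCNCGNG were found on either strand in Pklr, as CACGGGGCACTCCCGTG from base -170 to -154, and in Txnip, as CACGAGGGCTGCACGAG from base -85 to -69. Of all 32851 windows of the same length, 0.28% hold such letters, and the Pklr match reads on both strands. No match was found in the Rgs16 window, the gene among these with the largest difference, and a match or its lack describes only these letters in this window. The E-box letters CACGTG were in 0 of the 9 member windows (8 members, Pklr with 2), against 6.02% of all windows. The FOXO core GTAAACA was in Txnip from base -121 to -115 and in no other member window (3.17% of all windows). Rgs16 and Txnip windows were rich in G and C, 66.4% and 66.8% with 17 and 22 CG pairs, against medians of 52.4% and 6 over all windows, and the Pklr window held 54.4% and 5.

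Of the 3 enzymes that carry glucose output, G6pc alone had groups that did not overlap. G6pc encodes the catalytic subunit of glucose-6-phosphatase, which frees glucose for export. It held 263, 466 and 408 CPM in DEHP replicates 1 to 3, against 199.5, 249.9 and 242 CPM in control replicates 1 to 3. DEHP replicate 1 lay just above the highest control, and the other DEHP libraries stood well clear of it. The means were 379 ± 104.5 CPM in DEHP livers and 230.4 ± 27.0 CPM in control livers, with a log2 fold change of 0.72 ± 0.23. It was 0.55 when DEHP replicate 2 was left out and 0.95 when DEHP replicate 1 was left out. The table places G6pc (MGP_C57BL6NJ_G0019588) on chromosome 11 from 107489085 to 107501555, plus strand.

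Pck1 encodes the cytosolic phosphoenolpyruvate carboxykinase, the entry enzyme of gluconeogenesis, and was the most abundant of the 9. It held 6462, 5374 and 4451 CPM in DEHP replicates 1 to 3, against 4325, 5669 and 7259 CPM in control replicates 1 to 3. The groups overlapped throughout, and the highest and the lowest library were both controls. The log2 fold change was -0.08 ± 0.24, with 0.14 without control replicate 3 and -0.25 without control replicate 1. Fbp1 encodes fructose-1,6-bisphosphatase, the step between these enzymes. It held 635, 983 and 1214 CPM in DEHP replicates 1 to 3, against 493, 922 and 866 CPM in control replicates 1 to 3. Replicate 1 was the low library in both groups, and the log2 fold change was 0.31 ± 0.28, or 0.08 without control replicate 1. Pck1 (MGP_C57BL6NJ_G0027377) lies on chromosome 2 from 184574656 to 184580749, plus strand, and Fbp1 (MGP_C57BL6NJ_G0021053) on chromosome 13 from 64860030 to 64883553, minus strand.

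The promoters of G6pc and Pck1 are shown because both genes are known targets of glucagon acting through cyclic AMP, yet their values in these libraries differed. Capitals mark the letters TNACGTNA, a cyclic AMP response type, and TGTTTTG, an insulin response type. Each window holds the 250 bases before the start, from RefSeq on GRCm38.p6.
G6pc, chr11:101367466-101367715, plus strand: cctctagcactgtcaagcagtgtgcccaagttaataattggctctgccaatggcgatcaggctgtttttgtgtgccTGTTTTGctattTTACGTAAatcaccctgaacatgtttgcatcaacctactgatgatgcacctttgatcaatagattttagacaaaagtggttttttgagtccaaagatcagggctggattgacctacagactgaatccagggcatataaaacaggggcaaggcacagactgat
Pck1, chr2:173152823-173153072, plus strand: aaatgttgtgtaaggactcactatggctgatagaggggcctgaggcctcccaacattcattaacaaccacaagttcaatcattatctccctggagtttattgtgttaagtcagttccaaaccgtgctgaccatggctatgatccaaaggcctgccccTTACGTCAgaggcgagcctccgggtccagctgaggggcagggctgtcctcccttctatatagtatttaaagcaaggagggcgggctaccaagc

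Both windows hold the cyclic AMP type, as TTACGTAA from base -162 to -155 in G6pc and as TTACGTCA from base -93 to -86 in Pck1, which 3.83% of all windows do on either strand. The letters TGTTTTG were found in G6pc from base -174 to -168 and in Gckr from base -83 to -77, and in 5.56% of all windows. The matches in G6pc do not overlap each other. Neither is shown here to be bound.

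Gckr, Slc2a2 and Ppp1r3b serve uptake, sensing and storage. Gckr encodes a nuclear regulatory protein of hepatocytes that takes part in glucose sensing. It held 243, 172 and 175 CPM in DEHP replicates 1 to 3, against 271, 193.5 and 277 CPM in control replicates 1 to 3. DEHP replicate 1 lay among the controls, and control replicate 2 lay close to the other DEHP libraries. The log2 fold change was -0.33 ± 0.21, negative in all 14 alternative fits (-0.49 to -0.22).

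Slc2a2 encodes GLUT2, the glucose transporter of the hepatocyte surface. It held 227.5, 291 and 267.5 CPM in DEHP replicates 1 to 3, against 171.9, 272 and 206 CPM in control replicates 1 to 3, with overlapping groups and a log2 fold change of 0.27 ± 0.21. Leaving out control replicate 1 gave 0.13, and leaving out control replicate 2 gave 0.48. Ppp1r3b encodes the liver subunit that targets protein phosphatase 1 to glycogen and so favours glycogen synthesis. It held 143.9, 184 and 167 CPM in DEHP replicates 1 to 3, against 80.4, 135.4 and 204 CPM in control replicates 1 to 3. All 3 DEHP libraries lay inside the control range, and the log2 fold change of 0.24 ± 0.29 became 0.64 without control replicate 3 and -0.04 without control replicate 1. In the table's coordinates Gckr (MGP_C57BL6NJ_G0029854) lies on chromosome 5 from 31104560 to 31138105, Slc2a2 (MGP_C57BL6NJ_G0027533) on chromosome 3 from 27478156 to 27511659 and Ppp1r3b (MGP_C57BL6NJ_G0034029) on chromosome 8 from 35259556 to 35271747, all on the plus strand.

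**Figure D2:**
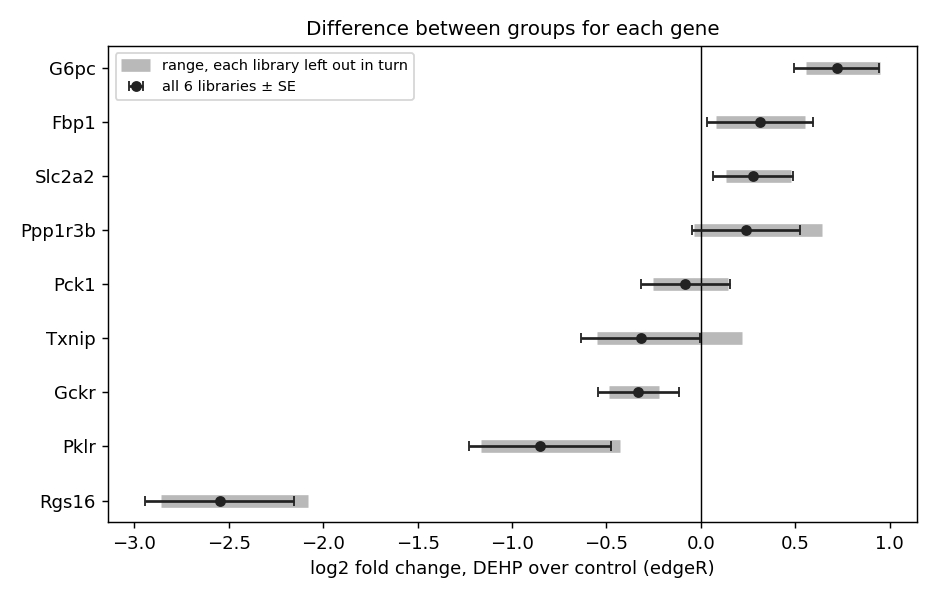
Log2 fold change of DEHP over control livers (horizontal axis) for each gene, with all 6 libraries (point, with SE) and the range when each library is left out in turn (grey bar). Rgs16 stays below -2 and G6pc above 0.5 throughout, while the bars of Txnip, Pck1 and Ppp1r3b cross 0. The groups of Rgs16 and of G6pc do not overlap, so leaving out a library could hardly change their sign.

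The spread among controls differed from gene to gene. On the log2 scale the SD of the 3 control libraries was 0.86 for Rgs16, 0.85 for Pklr, 0.73 for Txnip and 0.67 for Ppp1r3b, against a median of 0.308 over all genes tested. These lay at percentiles 92, 91.6, 88.4 and 85.9 of all genes. In DEHP libraries the SDs of the same genes were 0.25, 0.31, 0.08 and 0.18, against a median of 0.295. The reverse held for G6pc, with 0.43 in DEHP libraries and 0.18 in control libraries. With 3 libraries a group, the difference between these spreads was not tested.

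Per kilobase of gene length, the top of the ranking was the same in both groups, and the order below G6pc differed. Pck1 led with 1583 ± 294 CPM per kb in DEHP livers and 1677 ± 428 CPM per kb in control livers. Fbp1 followed with 555 ± 171 CPM per kb in DEHP livers and 447 ± 137 CPM per kb in control livers, then G6pc with 157 ± 43.3 CPM per kb in DEHP livers and 95.4 ± 11.2 CPM per kb in control livers. Slc2a2, Gckr, Ppp1r3b and Txnip lay between 28.4 and 45.6 CPM per kb in DEHP livers and between 33.4 and 57.1 in control livers. Their order was Slc2a2, Gckr, Ppp1r3b and Txnip in DEHP livers and Gckr, Slc2a2, Txnip and Ppp1r3b in control livers. Neighbours in that stretch did not differ beyond their SDs except Ppp1r3b and Txnip in DEHP livers. Rgs16 was last in DEHP livers with 7.15 ± 1.27 CPM per kb, below Pklr with 12.9 ± 2.83. In control livers Rgs16 stood at 41.8 ± 22.6 CPM per kb, above Pklr with 23.3 ± 12.03. By its control mean it ranked between Gckr and Slc2a2, with a wide SD.

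**Figure D3:**
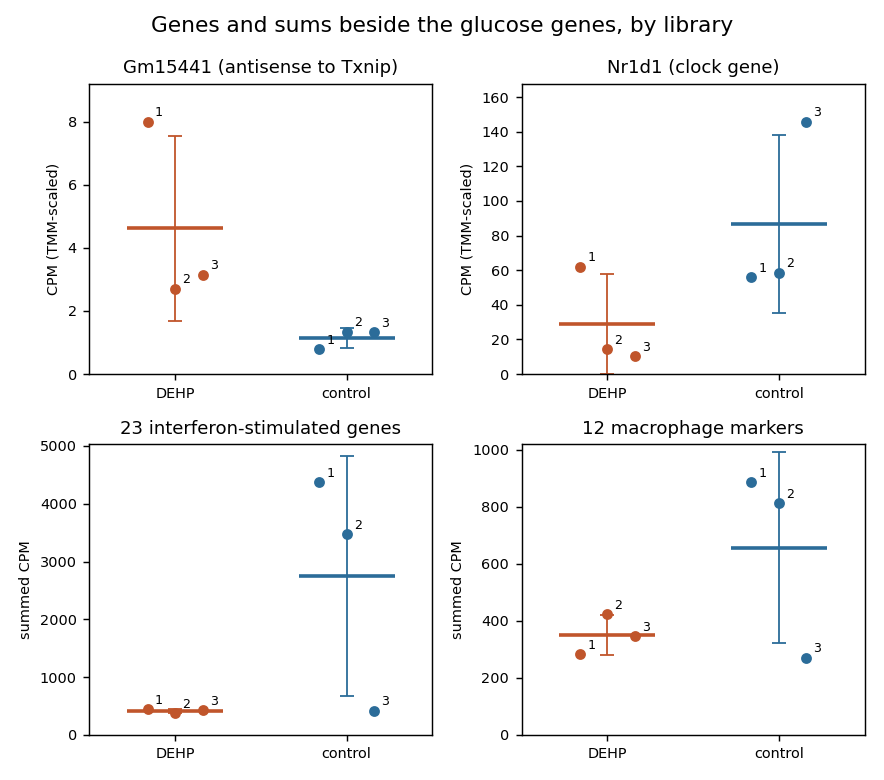
Values in each DEHP library (left) and control library (right), numbered by replicate, with mean and SD (n = 3): CPM of Gm15441 and of Nr1d1, and summed CPM of 23 interferon-stimulated genes and of 12 macrophage markers. Gm15441 is higher in all 3 DEHP libraries, Nr1d1 is highest in control replicate 3, and both sums are high in control replicates 1 and 2 alone.

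Clock genes, which drive daily rhythms in liver, varied among libraries within each group. Nr1d1, the repressor REV-ERB alpha, held 62.1, 14.4 and 10.2 CPM in DEHP replicates 1 to 3, against 56.0, 58.5 and 145.9 CPM in control replicates 1 to 3. Arntl, the activator BMAL1, held 3.14, 13.7 and 8.92 CPM in DEHP replicates 1 to 3, against 1.77, 1.11 and 8.68 CPM in control replicates 1 to 3. Of 18 clock genes tested, 0 passed in edgeR. By an unadjusted p under 0.05 there, 4 were higher and 0 lower, against 6.11% of all genes higher and 6.97% lower. The median log2 fold change was -0.07, and -0.03 over all genes. DESeq2 called 3, all higher, among them Cry1 and Nfil3, and limma-voom 0; Tef, the most abundant, had -0.07 ± 0.23 (edgeR adjusted p = 0.934). Cry1, Nfil3, Nr1d1 and Arntl were picked after their values were seen, and the part of the hour of collection in the Rgs16 values was not tested.

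Of 16 genes of the fasting response, 0 passed in edgeR (4 higher and 1 lower by an unadjusted p under 0.05; DESeq2 1 higher, limma-voom 0), with a median log2 fold change of 0.24. Of 21 interferon-stimulated genes tested, 0 passed in edgeR (0 higher and 20 lower by an unadjusted p under 0.05; DESeq2 13 lower, limma-voom 0), with a median of -3.15. Beside both lists, 6.11% of all genes tested were higher and 6.97% lower by an unadjusted p under 0.05 in edgeR. Bst2, tetherin, held 198, 143.9 and 149.9 CPM in DEHP libraries, against 1014, 686 and 161 CPM in control libraries (-1.92 ± 0.68, edgeR adjusted p = 0.356).

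Beyond the 9 members, 125 genes in 6 lists of glucose handling were tested, of 143 listed. None of them passed an adjusted p of 0.05 in edgeR or limma-voom, and 4 passed in DESeq2. By an unadjusted p under 0.05, 15 were higher and 9 lower, 19.2% of them against 13.1% of all genes, and their median log2 fold change was 0.0025. Relatives of Rgs16 and Txnip made 2 further lists, the RGS family and the alpha-arrestins with the thioredoxins. Of their 14 tested genes 0 passed with any of the 3 tools, and 0 were higher and 4 lower by an unadjusted p under 0.05. Of the 4 glucose handling genes that DESeq2 called, Mpc1 and Pdk4 were higher and Pkm and Hk3 were lower. They were named with their values in view.

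Mpc1, a subunit of the carrier that brings pyruvate into mitochondria, held 149, 213 and 159 CPM in DEHP replicates 1 to 3, against 67.4, 102.7 and 102.9 CPM in control replicates 1 to 3. Its log2 fold change was 0.93 ± 0.22 (edgeR adjusted p = 0.151, DESeq2 adjusted p = 0.0106). Pdk4, a kinase that switches off pyruvate dehydrogenase in fasting, held 5.37, 12.3 and 14.2 CPM in DEHP replicates 1 to 3, against 2.41, 2.61 and 5.41 CPM in control replicates 1 to 3. Its value was 1.62 ± 0.43 (edgeR adjusted p = 0.172, DESeq2 adjusted p = 0.0187), with DEHP replicate 1 just below control replicate 3. Pkm, the pyruvate kinase of most tissues other than liver, held 12.7, 6.98 and 19.2 CPM in DEHP replicates 1 to 3, against 39.3, 32 and 21.5 CPM in control replicates 1 to 3. Its value was -1.26 ± 0.35 (edgeR adjusted p = 0.200, DESeq2 adjusted p = 0.0234). Hk3, a hexokinase of blood cells, held 1.92, 3.49 and 3.91 CPM in DEHP replicates 1 to 3, against 20.5, 22.2 and 2.66 CPM in control replicates 1 to 3. It followed the libraries with high macrophage marker sums, and the part of those cells in its value was not tested.

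Among 20 glycolysis genes tested, 4 were higher and 4 lower by an unadjusted p under 0.05 in edgeR and 0 passed (DESeq2 1 higher and 2 lower, limma-voom 0; median log2 fold change -0.25). The abundant Ldha, a lactate dehydrogenase subunit, stood at -0.19 ± 0.21 (edgeR adjusted p = 0.744). Of 26 genes listed, 5 have no row under their symbol, Gapdh, Pgk1, Pgam1, Eno1 and Pfkfb2. Among 20 gluconeogenesis genes, 3 were higher and 2 lower by an unadjusted p under 0.05 and 0 passed (DESeq2 1 higher, limma-voom 0; median 0.13). Tat, a tyrosine aminotransferase, stood at -0.05 ± 0.40 (edgeR adjusted p = 0.973), and Got2, a mitochondrial aspartate aminotransferase, at 0.32 ± 0.19 (edgeR adjusted p = 0.488).

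Among 25 glycogen genes, 4 were higher and 1 lower by an unadjusted p under 0.05 and 0 passed in edgeR, DESeq2 or limma-voom, with a median log2 fold change of 0.24. Ugp2, which makes UDP-glucose, stood at 0.35 ± 0.20 (edgeR adjusted p = 0.459), and Pgm2, a phosphoglucomutase, at 0.24 ± 0.19 (edgeR adjusted p = 0.621). Ppp1r3g, another glycogen-targeting subunit of the kind of Ppp1r3b and picked after its values were seen, held 22.6, 7.59 and 9.09 CPM in DEHP replicates 1 to 3, against 5.67, 5.77 and 4.08 CPM in control replicates 1 to 3 (1.33 ± 0.40, edgeR adjusted p = 0.218). Among 18 ChREBP and glucose-responsive genes, 1 was higher and 1 lower by an unadjusted p under 0.05 and 0 passed with any of the 3 tools (median -0.25). Mlxipl, which encodes ChREBP, held 290, 124.7 and 170.2 CPM in DEHP replicates 1 to 3, against 169.7, 170.9 and 298 CPM in control replicates 1 to 3 (-0.13 ± 0.32, edgeR adjusted p = 0.909). Scd1, a fatty acid desaturase, stood at 0.45 ± 0.37 (edgeR adjusted p = 0.657). Mlxipl was high in DEHP replicate 1 and control replicate 3.

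**Figure D4:**
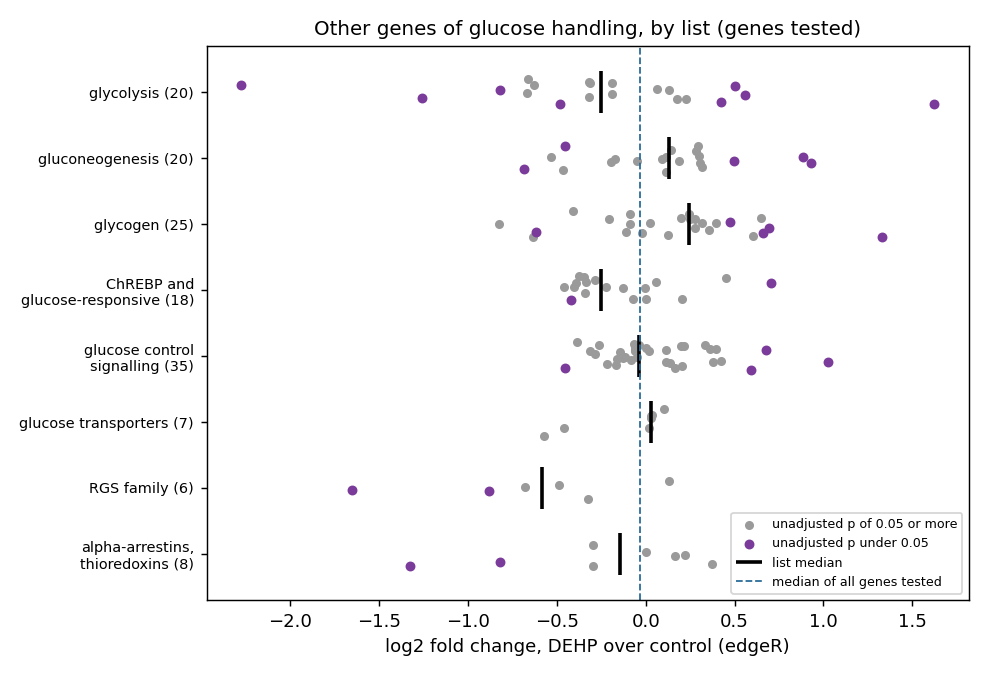
Log2 fold change of DEHP over control livers (horizontal axis) for each tested gene of 8 lists (rows, with the number tested), coloured by unadjusted p, with list medians (black bars) and the median of all genes (dashed line, -0.03). List medians lie between -0.58 and 0.24, and most genes lie within 1 of 0.

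In the signalling list of 35 genes, 3 were higher and 1 lower by an unadjusted p under 0.05 and 0 passed with any tool (median -0.04). Hnf4a and Cebpa, transcription factors of hepatocytes, stood at -0.06 ± 0.20 and 0.02 ± 0.22 (edgeR adjusted p = 0.937 and 0.979). Of 7 other glucose transporter genes tested, 0 passed with any tool and 0 had an unadjusted p under 0.05 in edgeR, with Slc2a9 and Slc2a8 at 0.03 ± 0.19 and 0.03 ± 0.20 (edgeR adjusted p = 0.961 and 0.963). Of 6 other RGS genes, 2 were lower by an unadjusted p under 0.05 and 0 passed with any tool. Rgs5, also a marker of vessel-associated cells, stood at -0.88 ± 0.23 (edgeR adjusted p = 0.170). Of 8 alpha-arrestin and thioredoxin genes, 2 were lower by an unadjusted p under 0.05 and 0 passed with any tool. Txn2 and Txn1, the mitochondrial and cytosolic thioredoxins, stood at 0.17 ± 0.18 and -0.30 ± 0.23 (edgeR adjusted p = 0.740 and 0.629). Arrdc4, a relative of Txnip that glucose also raises and picked after its values were seen, had 19.0 ± 1.57 CPM in DEHP livers and 19.0 ± 6.02 CPM in control livers.

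Among the 9, 4 have a row on the opposite strand that overlaps them, and the sources used here do not say whether counting used strand. Gm15441, an RNA antisense to Txnip that is known in mouse liver to respond to PPARalpha and to lower Txnip, held 79, 31 and 37 counts in DEHP replicates 1 to 3, against 11, 17 and 15 counts in control replicates 1 to 3. That is 8, 2.70 and 3.14 CPM in DEHP libraries, against 0.780, 1.34 and 1.33 CPM in control libraries, with no overlap. Its log2 fold change was 2.00 ± 0.55 (edgeR adjusted p = 0.189), and it was picked after its values were seen. Gm28513, antisense to Rgs16 and under the count filter, held 0, 1 and 1 counts in DEHP libraries, against 15, 14 and 4 counts in control libraries, an order of groups like that of Rgs16. Hcn3, which overlaps Pklr, held 84, 66 and 96 counts in DEHP replicates 1 to 3, against 171, 226 and 40 counts in control replicates 1 to 3. Like Pklr, it was high in control replicates 1 and 2 and low in control replicate 3. The row over Slc2a2 held 0 counts in all 6 libraries. Counts on these rows were below those of the member in every library, and how reads were divided between strands was not tested.

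For each member, the gene with the most similar pattern over the 6 libraries was taken by Pearson correlation of log2 CPM among 8730 genes of at least 5 CPM. Over so few libraries, 19 to 98 genes correlated above 0.95 with each member, so these pairs are descriptions. Rgs16 ran with Apof, an apolipoprotein gene (r = 0.992, rho = 0.943), at 661, 687 and 613 CPM in DEHP libraries, against 1846, 1371 and 997 CPM in control libraries. G6pc ran with Tmem135 (r = 0.996, rho = 1), at 61.6, 93.3 and 79.9 CPM in DEHP libraries, against 48.2, 57.4 and 56.6 CPM in control libraries. Pklr ran with Nckap1l, a gene of blood cells (r = 0.994, rho = 1). The closest gene was Slc4a4 for Ppp1r3b (r = 0.995), Nbas for Txnip (r = 0.989), Proc for Gckr (r = 0.988), Abhd17c for Slc2a2 (r = 0.988), Cdk16 for Pck1 (r = 0.986) and Cdadc1 for Fbp1 (r = 0.986). Without the 2 libraries farthest from the member's median, r was 0.957 to 0.997 for 8 of these pairs. It was 0.244 for Txnip and Nbas, a relation that rested on control replicates 1 and 3. Each partner was picked for its r over these same libraries, so the high values carry no further weight.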

How the data were processed

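Polyadenylated RNA from mouse liver was prepared with a kit that marks strand and sequenced from both ends in 6 libraries, 3 with DEHP and 3 without, per the labels' protocols. The authors deposited whole-number counts per gene in 1 table, per the file headers with gene identifiers of the C57BL/6NJ strain annotation and a gene length in bases. GRCm38.p6 is named in the submitters' processing notes; the aligner, the counting program and any use of strand in counting: not given in the sources used here. Groups and replicate numbers came from the sample titles, and the columns named Control and High were matched to them by word and number. The series' design text describes another assay and was not used.

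The 1284 rows without a gene name (2.73% to 4.28% of counts) stayed out of library sizes and tests. The test was that of edgeR 4.0.16 (R 4.3.3) on the counts: filterByExpr with a minimum count of 10, TMM scaling, the robust quasi-likelihood test (two-sided, DEHP against control, no covariates) and Benjamini-Hochberg adjustment over 12468 genes. Standard errors were derived from the F statistic. DESeq2 1.42.0 and limma-voom (limma 3.58.1) were alternatives, as were a mean of at least 1 CPM, RLE scaling, no low-count filter, the replicate block, a non-robust fit and each library left out. Leaving out control replicates 1 and 2 together was added after the data were seen. The procedure was tested on simulated counts.

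The members and lists were chosen with earlier results of these data known. Named genes are the 9 members, up to 4 genes past the threshold from each list or otherwise the 2 most abundant (1 for RGS genes, fasting, clock and interferon lists), and the closest gene to each member; other names were chosen with their values in view. Some genes that the rule names are not reported here. Precision rests on depth, 10410098 to 14229803 counts a library, and on 3 libraries a group; same-group libraries differed beyond sampling noise (the lowest chi-square over its degrees of freedom was 28.4). Promoter windows are RefSeq's on GRCm38.p6 and matched 8 of 9 members by symbol, Ppp1r3b being the exception; 5 motifs were searched on both strands.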

Additional observations from a re-analysis of the deposited data

How the results depend on the processing

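Among 14 alternatives, 0 members passed an adjusted p of 0.05 in the edgeR fit and in 9 of the alternatives. With no filter on low counts 3 passed (Rgs16, Pklr and G6pc). In that fit the SEs of all members lay between 0.2152 and 0.2331, against 0.211 to 0.3951 in the edgeR fit. Those calls thus took little account of how members differ in spread. With DESeq2 1 passed and with a fit that is not robust 1 (Rgs16 in both). With 1 library left out 0 to 2 passed, the 2 being Rgs16 and Pklr without control replicate 3. Of the genes in the 8 other lists, 0 passed in the edgeR fit, 12 with no filter (8 in glucose lists, 4 in the RGS and alpha-arrestin lists), 4 with DESeq2 and 0 to 7 with 1 library left out (5 and 2 of these without control replicate 3). Over all genes, 9 passed in the edgeR fit, 496 with no filter, 261 with DESeq2, 2 with limma-voom, and 5 to 400 with 1 library left out, the highest without control replicate 3. With control replicates 1 and 2 both left out 0 passed (edgeR; 642 had an unadjusted p under 0.05). The cause was not tested. Rgs16, G6pc, Gckr, Fbp1 and Slc2a2 kept the sign of their log2 fold change in all 14 alternatives. For Rgs16 and G6pc, whose groups did not overlap, leaving out libraries could hardly have changed it. Pck1, Txnip and Ppp1r3b changed sign in 2 each and Pklr in 1. The median of all genes was -0.03 and stayed between -0.04 and 0.02. Replicate numbers in the titles do not say what they pair. Deviations of same-numbered libraries from their group means correlated at -0.02, 0.06 and -0.03. With 3 libraries a group, such values cannot show whether a number marks a shared litter, batch or day. With the replicate block 6 genes passed over all genes, 0 members and 0 genes of the other lists. Each member held at least 138 counts in every library, so 3 libraries a group limit precision more than depth does.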

Other observations

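Hepatocytes divide glucose work along the liver lobule, with gluconeogenesis as a rule near the portal vein and glycolysis near the central vein. Of 15 pericentral markers tested, 0 passed an adjusted p of 0.05 in edgeR, while 10 were higher and 0 lower by an unadjusted p under 0.05 (DESeq2 called 3 higher, limma-voom 0), with a median log2 fold change of 0.59. Their summed level, most of it Cyp2e1, was 24060 to 26300 CPM in DEHP libraries and 9395 to 17180 CPM in control libraries. The groups did not overlap for that sum. Among all genes tested, 6.11% were higher and 6.97% lower by an unadjusted p under 0.05 in edgeR. Groups did not overlap for 17.7% of all genes. Of 12 periportal markers, 0 passed in edgeR, 2 were higher and 1 lower by an unadjusted p under 0.05 (0 in DESeq2 and limma-voom), with a median of 0.03.

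Markers of other cell types were summed in each library. Sinusoidal endothelial markers summed to 225 to 418 CPM in DEHP libraries and 431 to 535 CPM in control libraries, with no overlap. Of 10 tested, 0 passed in edgeR (0 higher and 4 lower by an unadjusted p under 0.05, DESeq2 1 lower, limma-voom 0). Taken singly, 3 of the 10 had every DEHP library below the controls, against 8.57% of all genes. Of the 10, 1 had a positive log2 fold change. Stellate cell markers summed to 132 to 222.1 CPM in DEHP libraries and 214 to 280 CPM in control libraries. Bile duct markers summed to 103 to 119 CPM in DEHP libraries and 76.8 to 142 CPM in control libraries. Lymphocyte markers summed to 4.54 to 14.2 CPM in DEHP libraries and 5.58 to 6.88 CPM in control libraries, and neutrophil markers, with Mpo and Ly6g at 0 in every library, to 3.40 to 4.46 CPM in DEHP libraries and 3.28 to 9.92 CPM in control libraries. Pancreatic acinar markers, 4 of 7 of them at 0 in every library, summed to 12.04 to 16.6 CPM in DEHP libraries and 11.7 to 18.0 CPM in control libraries. Of the fat cell markers, Lep was at 0 in every library, and Adipoq and Plin1 reached at most 25 and 10 counts in a library. The sum of that list, nearly all of it Car3, which liver also expresses, was 569 to 809 CPM in DEHP libraries and 293 to 906 CPM in control libraries. The red cell list had 2 rows that differed in direction, both named after their values were seen. Alas2 held 40.3 to 50.9 CPM in DEHP libraries and 23.6 to 45.1 CPM in control libraries, and Hba-a1, an alpha globin with a near-identical copy in the genome, held 0.304 to 0.595 CPM in DEHP libraries and 1.28 to 5.93 CPM in control libraries (log2 fold change -2.71 ± 0.72, edgeR adjusted p = 0.170, DESeq2 adjusted p = 0.020).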
